A study of Rattus norvegicus with 8 samples.

Results

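The genes described here were 8 that carry fatty acids into triglyceride and load triglyceride onto very low density lipoprotein (VLDL) in liver: Gpam, Agpat2, Lpin1, Lpin2, Dgat1, Dgat2, Mogat2 and Mttp. They were taken by symbol from the 15115 genes of the authors' deposited table, and each of the 8 symbols matched 1 row. RNA-seq was done on livers of wild-type male F344 rats. CDAA_PTS rats (4 libraries) ate a choline-deficient, amino acid-defined diet holding pterostilbene, a dimethylated stilbenoid, at 1.34 g per kg of diet. CDAA rats (4 libraries) ate the choline-deficient diet alone, which brings on fatty liver and later liver cancer in rats. Both groups began with 3 weeks of choline-sufficient diet, into which the pterostilbene rats already had the compound mixed. The study lasted 60 weeks with 6 rats in a group, and the rats' age is labelled as 1 year. One passage of the series text uses the pterostilbene group's short name for a resveratrol group too, and the sample labels, which name pterostilbene, were followed. Tissue taken in the study was tumour, nodule or normal liver, and which of these went into each library is not stated in the sources used here.

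In the glycerol phosphate route of triglyceride synthesis, an acyltransferase adds a first fatty acid to glycerol phosphate, a second acyltransferase makes phosphatidic acid, lipins remove the phosphate to give diacylglycerol, and DGAT enzymes add the last fatty acid. A shorter route starts from monoacylglycerol and serves mainly the small intestine. Hepatocytes store the product in droplets or, through microsomal triglyceride transfer protein, load it onto apolipoprotein B for secretion as VLDL, which needs phosphatidylcholine for its surface. Choline deficiency is known for holding triglyceride back in the liver.

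With pterostilbene, livers had more mRNA of Gpam, the first acyltransferase, and less of Lpin2 and Mogat2, the last called in 2 of the 3 tools. In the authors' deposited table, 3 of the 8 genes had an edgeR adjusted p under 0.05, against 3.41% of all genes (516 of 15115). Of the 3, 1 was higher in CDAA_PTS, as were 1.47% of all genes, and 2 were lower, as were 1.95%. The genes were listed with earlier results of these data known, so this count is a description. DESeq2 calls 2 of the 8 (4.46% of the genes it tested) and Cuffdiff calls 4 (5.51%) in the authors' deposited table. Gpam and Lpin2 were called by all 3 tools, as were 2.78% of the genes tested in all 3. With a mean of at least 1 CPM (reads of a gene scaled to library size) required, edgeR again calls 3 of the 8 (4.11% of the genes kept), and at a threshold of 0.01 it calls 1, Gpam (1.41%). Before adjustment 4 of the 8 had an edgeR p under 0.05, as did 14.6% of all genes. The edgeR log2 fold changes of the authors' deposited table were above 0 for 4 of the genes and below 0 for 4, with a median of -0.01 against 0.01 over all genes. Their median absolute size was 0.50, against 0.17 over all genes. Values for single rats were not analysed here, since the authors' deposited table gives 1 FPKM value per group (fragments mapped, scaled by transcript length and library size, so a level per length) and 1 fold change per tool. Whether the groups overlap between rats therefore cannot be stated, and fewer cells of a type and less RNA per cell cannot be told apart in these bulk samples.

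**Figure D1:**
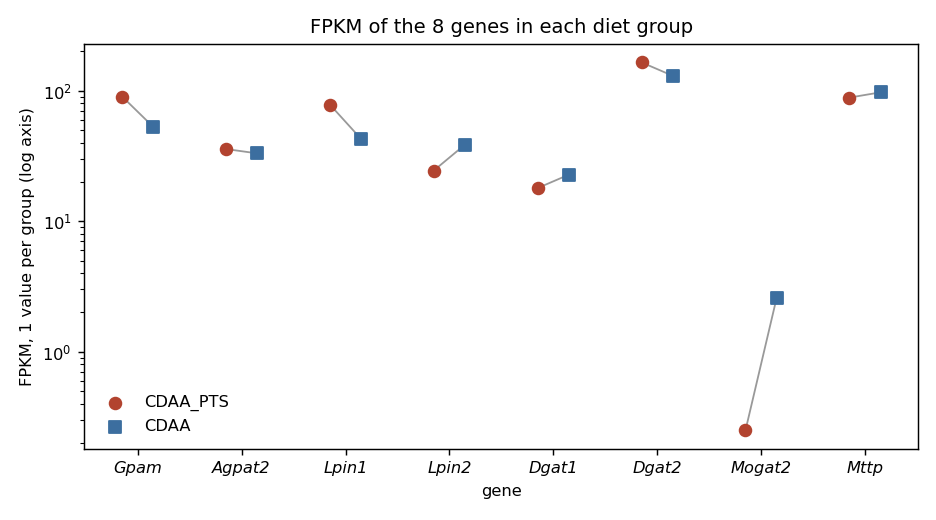
FPKM of each gene in CDAA_PTS (circles) and CDAA (squares) on a log axis, 1 value per group as the authors' table gives it, with no error. Gpam, Agpat2, Lpin1 and Dgat2 are higher in CDAA_PTS, and Lpin2, Dgat1, Mogat2 and Mttp are lower. Of these, edgeR calls Gpam, Lpin2 and Mogat2. Mogat2 lies far under the others in both groups.

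Levels per length put Dgat2 first and Mogat2 last in both groups. In CDAA_PTS livers the FPKM order in the authors' deposited table was Dgat2 (165), Gpam (90.1), Mttp (88.5), Lpin1 (78.2), Agpat2 (35.7), Lpin2 (24.5), Dgat1 (18.0) and Mogat2 (0.250). In CDAA livers the FPKM order in the authors' deposited table was Dgat2 (130), Mttp (97.1), Gpam (52.7), Lpin1 (42.7), Lpin2 (38.6), Agpat2 (33.1), Dgat1 (22.7) and Mogat2 (2.59). Gpam and Mttp changed places, as did Agpat2 and Lpin2. Without a spread between rats, which neighbours in this order differ cannot be stated. By mean CPM over all libraries in the authors' deposited table, Mttp and Dgat2 were the most abundant of the 8. Mttp, at a mean of 400 CPM, exceeded 98.3% of all genes, whereas Mogat2, at 2.64 CPM, exceeded 23.4%.

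Gpam encodes the mitochondrial glycerol phosphate acyltransferase, which commits fatty acyl-CoA to glycerolipids on the outer mitochondrial membrane. Gpam (ENSRNOG00000015124, chromosome 1, 275846818 to 275906686 in rn6) had 90.1 FPKM in CDAA_PTS livers and 52.7 FPKM in CDAA livers in the authors' deposited table. Its edgeR log2 fold change was 0.77, or 1.71-fold (adjusted p = 4.5e-05, authors' deposited table). The authors' DESeq2 value, which is moderated toward 0, was 0.70 with an SE of 0.13 and a 95% interval of 0.45 to 0.94 (not adjusted for the number of genes), and Cuffdiff gave 0.77. Of all genes in the authors' deposited table, 53 had a smaller edgeR p. The other acyltransferases for this step were not called. Gpat4 had 21.4 FPKM in CDAA_PTS livers and 20.6 FPKM in CDAA livers (authors' deposited table). Gpat3 had 2.80 FPKM in CDAA_PTS livers and 2.83 FPKM in CDAA livers, and Gpat2 had 1.41 FPKM in CDAA_PTS livers and 1.35 FPKM in CDAA livers (authors' deposited table). Gpam thus made up 77.9% of the summed FPKM of the 4 enzymes in CDAA_PTS and 68.0% in CDAA.

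Agpat2 encodes the acyltransferase of the endoplasmic reticulum that turns lysophosphatidic acid into phosphatidic acid, and its loss causes lipodystrophy in people. Agpat2 (ENSRNOG00000019466, chromosome 3, 4044541 to 4055806 in rn6) had 35.7 FPKM in CDAA_PTS livers and 33.1 FPKM in CDAA livers in the authors' deposited table. It was not called (edgeR log2 fold change 0.12, adjusted p = 0.77), and the authors' DESeq2 interval ran from -0.13 to 0.36. Among the 5 measured genes of this step, Agpat2 held 56.6% of the summed FPKM in CDAA_PTS and 53.4% in CDAA, followed by Agpat3 with 27.1% in CDAA_PTS and 29.6% in CDAA.

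Lipins dephosphorylate phosphatidic acid to diacylglycerol, and Lpin1 also acts in the nucleus as a coactivator of fatty acid oxidation genes. Lpin2 (ENSRNOG00000014876, chromosome 9, 119517100 to 119591533 in rn6) had 24.5 FPKM in CDAA_PTS livers and 38.6 FPKM in CDAA livers in the authors' deposited table. It fell by 0.64 on the log2 scale of the authors' edgeR block (adjusted p = 0.023), and the DESeq2 value was -0.54 with an SE of 0.15 and an interval of -0.85 to -0.24. Cuffdiff gave -0.66, and 1 other row of the authors' deposited table, a U7 small nuclear RNA, has the same locus as Lpin2. Lpin1 (ENSRNOG00000004377, chromosome 6, 41799748 to 41870046 in rn6) had 78.2 FPKM in CDAA_PTS livers and 42.7 FPKM in CDAA livers in the authors' deposited table. The tools differ on Lpin1: Cuffdiff calls it at a log2 fold change of 0.87 (q = 0.0019), whereas edgeR gives 0.69 (adjusted p = 0.57) and DESeq2 0.22 with an SE of 0.20 (adjusted p = 0.65, authors' deposited table). The DESeq2 interval of Lpin1, -0.17 to 0.61, does not reach the value of edgeR or of Cuffdiff. It is centred on the moderated value, so it is not an interval for those 2 values.

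The 2 lipins stood nearly level in CDAA, and Lpin1 stood well above Lpin2 in CDAA_PTS. The FPKM ratio of Lpin1 to Lpin2 was 3.20 in CDAA_PTS and 1.10 in CDAA in the authors' deposited table. Lpin3, the third lipin, was not called, with 10.5 FPKM in CDAA_PTS livers and 11.3 FPKM in CDAA livers. Lpin1 made up 69.1% of the summed lipin FPKM in CDAA_PTS and 46.1% in CDAA, and Lpin2 21.6% in CDAA_PTS and 41.7% in CDAA. The sum itself was 113 FPKM in CDAA_PTS and 92.6 FPKM in CDAA. These shares have no error, and the difference between the changes of Lpin1 and Lpin2 was not tested.

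**Figure D2:**
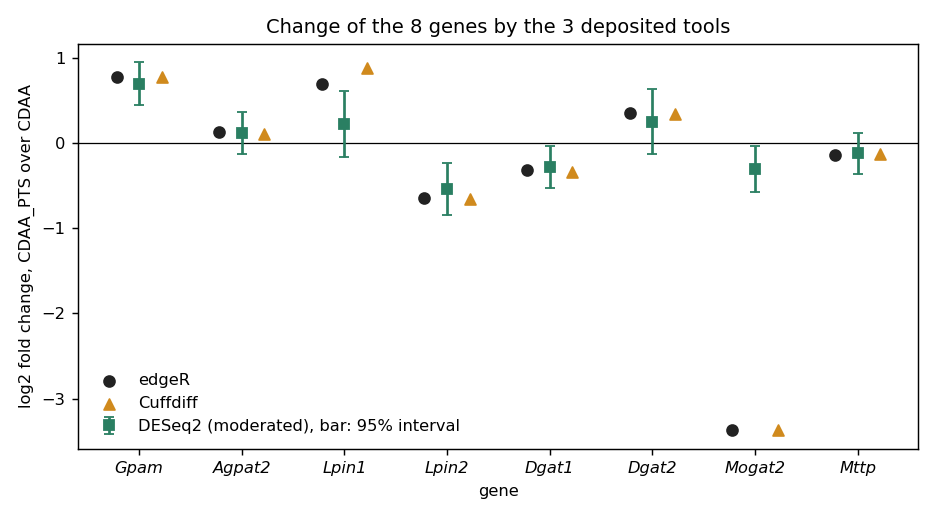
Log2 fold change of each gene, CDAA_PTS over CDAA, from the edgeR (circles), DESeq2 (squares, bars give the 95% interval) and Cuffdiff (triangles) blocks of the authors' table. The 3 tools lie close for Gpam, Agpat2, Lpin2, Dgat1, Dgat2 and Mttp, and apart for Lpin1 (0.69, 0.22 and 0.87) and Mogat2 (-3.37, -0.31 and -3.37).

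The DESeq2 standard error of Lpin1 was larger than that of most genes of like count. Of 599 genes whose mean normalized count was within 1.5 times that of Lpin1, Lpin1 included, 9 had an SE as large or larger in the authors' deposited table. In the authors' deposited table, 3956 genes had a mean normalized count of at least 500, and 86 of them (2.17%) had a DESeq2 standard error as large as that of Lpin1 or larger. Dgat2 was next of the 8, with an SE of 0.19 that 126 of the 3956 genes reached. The median SE of the 3956 genes was 0.11. Moderation also acted more on Lpin1: its DESeq2 value was 0.324 of its edgeR value, against a median of 0.789 over the 221 such genes whose edgeR change was at least 0.5 in size. Of those 221 genes, 9 had a ratio as low as that of Lpin1 (authors' deposited table).

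**Figure D3:**
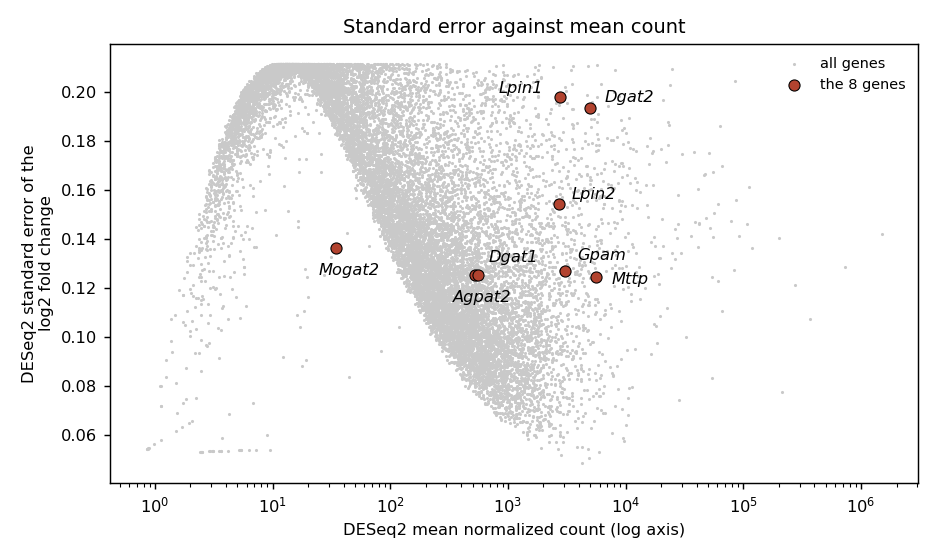
DESeq2 standard error of the log2 fold change against the mean normalized count (log axis) for all genes of the authors' table, with the 8 genes in red. Lpin1 (0.20) and Dgat2 (0.19) lie near the upper edge for their counts, and Mogat2 (0.14) lies under most genes of like count. The standard error is that of the moderated value, which for Mogat2 was 0.0906 of the edgeR value. It does not tell how precise the edgeR value is.

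Stretches before the annotated starts of Gpam, Lpin1 and Lpin2 are shown because these genes had the largest edgeR changes among the 7 abundant ones, Lpin2 in the other direction. They are RefSeq sequences of the GRCr8 build, 250 bases each, read 5′ to 3′ on the gene's strand, with searched motifs in capitals. RefSeq sequences were at hand for 4 of the 8 genes, and the Agpat2 sequence was searched but is not shown. Gpam lies at chr1:264175912-264176161 on the minus strand, Lpin1 at chr6:45108943-45109192 on the minus strand and Lpin2 at chr9:118530105-118530354 on the plus strand of GRCr8.
Gpam: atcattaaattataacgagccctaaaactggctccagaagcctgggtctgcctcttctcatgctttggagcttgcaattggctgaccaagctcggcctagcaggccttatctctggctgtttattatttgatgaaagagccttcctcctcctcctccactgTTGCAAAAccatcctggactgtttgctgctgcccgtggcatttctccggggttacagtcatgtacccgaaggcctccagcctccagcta
Lpin1: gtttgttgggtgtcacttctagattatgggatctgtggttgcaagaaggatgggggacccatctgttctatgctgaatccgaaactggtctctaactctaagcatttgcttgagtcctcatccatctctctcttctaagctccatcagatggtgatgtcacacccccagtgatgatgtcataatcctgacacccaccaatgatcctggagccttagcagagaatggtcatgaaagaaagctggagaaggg
Lpin2: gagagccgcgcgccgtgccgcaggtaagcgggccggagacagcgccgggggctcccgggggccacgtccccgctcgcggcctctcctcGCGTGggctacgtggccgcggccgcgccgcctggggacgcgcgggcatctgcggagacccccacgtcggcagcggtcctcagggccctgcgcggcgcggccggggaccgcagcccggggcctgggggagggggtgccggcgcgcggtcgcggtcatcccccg
The capitals mark 1 match in Gpam and 1 in Lpin2. TTGCAAAA in Gpam, 89 to 82 bases before the start, matches the C/EBP motif TTGCNNAA, which 9.22% of 33469 RefSeq stretches of this length hold on either strand. GCGTG in Lpin2, 162 to 158 bases before the start, matches the core letters bound by the aryl hydrocarbon receptor, held by 25.9% of stretches. The E-box CACGTG (5.59%), the sterol regulatory element TCACNCCAC (0.974%) and the Nr5a2 motif AAGGNCA (17.6%) had no match on either strand in these 3 or in Agpat2. Lpin2 is rich in G and C in this window (82.4%), Gpam and Lpin1 less so (51.2% and 47.2%), against a median of 51.2% over all stretches. A match is a description of letters, and binding was not measured.

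Both DGAT enzymes make triglyceride from diacylglycerol, although they are unrelated in sequence: Dgat2 is tied to newly made fatty acids and Dgat1 to fatty acids taken up or recycled. Neither was called. Dgat2 (ENSRNOG00000016573, chromosome 1, 164113458 to 164143818 in rn6) had 165 FPKM in CDAA_PTS livers and 130 FPKM in CDAA livers in the authors' deposited table. Its edgeR log2 fold change was 0.36 (adjusted p = 0.62), and its DESeq2 interval was -0.13 to 0.63 in the authors' deposited table. Dgat1 (ENSRNOG00000028711, chromosome 7, 117566367 to 117576737 in rn6) had 18.0 FPKM in CDAA_PTS livers and 22.7 FPKM in CDAA livers in the authors' deposited table. Its edgeR log2 fold change was -0.32, with a p of 0.022 before adjustment and 0.23 after it, and its DESeq2 interval was -0.53 to -0.04 in the authors' deposited table. The FPKM ratio of Dgat2 to Dgat1 was 9.17 in CDAA_PTS and 5.72 in CDAA, and whether this ratio differs was not tested.

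Mogat2 encodes the monoacylglycerol acyltransferase best known from fat absorption in the small intestine. Mogat2 (ENSRNOG00000027228, chromosome 1, 164181763 to 164205222 in rn6) has a locus that begins 37945 bases after the end of that of Dgat2, which belongs to the same enzyme family. The level was 0.250 FPKM in CDAA_PTS and 2.59 FPKM in CDAA in the authors' deposited table, 10.4-fold lower in CDAA_PTS, both low levels. In the edgeR block of the authors' deposited table it fell by 3.37 on the log2 scale (adjusted p = 0.046), and 20 genes had a lower value. Cuffdiff also calls Mogat2 (q = 0.0019), whereas DESeq2 moderates it to -0.31, with an interval of -0.57 to -0.04 and an adjusted p of 0.22 (authors' deposited table). The mean normalized count of Mogat2 over all libraries was 34.6, and how it divides among the rats was not analysed here. Mogat3, a related enzyme, was not called, with 0.745 FPKM in CDAA_PTS livers and 1.15 FPKM in CDAA livers in the authors' deposited table. DESeq2 gives Mogat3 no adjusted p. Mogat1 was looked up by symbol without a match, so it was not analysed here.

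Markers of enterocytes and adipocytes, cells that also express Mogat2 or store triglyceride, were read beside it. Of 10 enterocyte markers, 4 were measured, and their summed FPKM was 26.2 in CDAA_PTS and 43.4 in CDAA in the authors' deposited table. Of these, Fabp2, the intestinal fatty acid binding protein, fell by 1.44 on the edgeR log2 scale (adjusted p = 1.3e-08), to 12.0 FPKM in CDAA_PTS against 28.7 FPKM in CDAA. The other 3 were not called, among them the brush border protein Vil1 with 2.65 FPKM in CDAA_PTS livers and 2.31 FPKM in CDAA livers (authors' deposited table). Krt20, also of these 3, had 11.5 FPKM in CDAA_PTS livers and 12.3 FPKM in CDAA livers. The difference between the sums thus lay mainly in Fabp2. Of 7 adipocyte markers, 4 were measured, with a summed FPKM of 72.1 in CDAA_PTS and 97.1 in CDAA in the authors' deposited table. Fabp4, which macrophages and endothelial cells express too, fell by 0.94 on the edgeR log2 scale (adjusted p = 0.0025), to 29.6 FPKM in CDAA_PTS against 56.0 FPKM in CDAA. Adiponectin (Adipoq) was near 0, with 0.152 FPKM in CDAA_PTS livers and 0.227 FPKM in CDAA livers, and the other 3 measured adipocyte markers, Adipoq included, were not called (authors' deposited table). Cidec had 30.2 FPKM in CDAA_PTS livers and 30.6 FPKM in CDAA livers, and Cfd had 12.0 FPKM in CDAA_PTS livers and 10.2 FPKM in CDAA livers. The difference between these sums thus lay mainly in Fabp4. In each list edgeR called 1 of the 4 measured genes, against 3.41% of all genes. For the enterocyte marker Slc15a1 and for Adipoq, DESeq2 gives no adjusted p, and Cuffdiff did not test them. None of the measured markers of either list is listed at 0, and their part in the Mogat2 value was not tested.

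**Figure D4:**
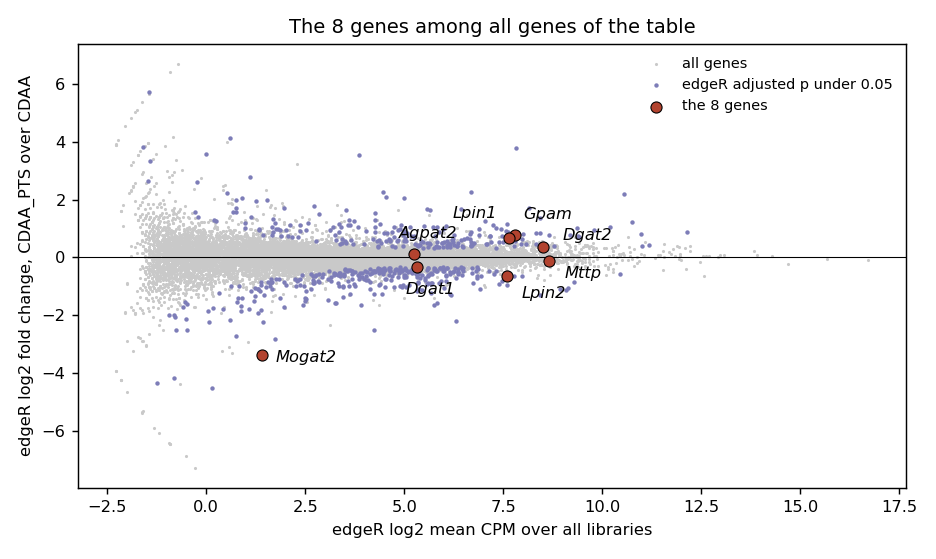
EdgeR log2 fold change, CDAA_PTS over CDAA, against log2 mean CPM for all 15115 genes of the authors' table, with genes at an adjusted p under 0.05 in blue and the 8 genes in red. Gpam lies above the band of genes of like abundance, Lpin2 below it, and Mogat2 far below at a low mean CPM.

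Mttp encodes the large subunit of microsomal triglyceride transfer protein, which lipidates apolipoprotein B. Mttp (ENSRNOG00000010655, chromosome 2, 243366180 to 243407608 in rn6) had 88.5 FPKM in CDAA_PTS livers and 97.1 FPKM in CDAA livers in the authors' deposited table. It was not called (edgeR log2 fold change -0.14, adjusted p = 0.76), and its DESeq2 interval was -0.37 to 0.12. Its partners were not called either. P4hb, the protein disulfide isomerase that forms the small subunit, had 732 FPKM in CDAA_PTS livers and 788 FPKM in CDAA livers, and Apob had 1307 FPKM in CDAA_PTS livers and 1260 FPKM in CDAA livers (authors' deposited table). The FPKM ratio of P4hb to Mttp was 8.27 in CDAA_PTS and 8.12 in CDAA.

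Other genes of the pathway were read in 5 lists. In these, 73 genes in 75 rows were measured, and by edgeR 1 rose, 1 fell and 73 rows did not pass, which is 2.67% of rows against 3.41% of all genes in the authors' deposited table. Before adjustment, 13 of the 75 rows (17.3%) had an edgeR p under 0.05, against 14.6% of all genes. None of the 9 measured genes of fatty acid uptake and activation passed in edgeR or DESeq2, with 2 at an unadjusted edgeR p under 0.05 and a median log2 fold change of -0.03. Acsl1, the main acyl-CoA synthetase of liver, had 464 FPKM in CDAA_PTS livers and 410 FPKM in CDAA livers in the authors' deposited table. The 4 genes supplying glycerol phosphate had 0 calls in edgeR, DESeq2 and Cuffdiff, with 1 at an unadjusted edgeR p under 0.05 and a median of -0.01. For other acyltransferases and phosphatases, 25 symbols were listed and 16 genes were measured. Of these 16 genes, 0 passed in edgeR or DESeq2, with 2 at an unadjusted edgeR p under 0.05 and a median of 0.01. The 24 rows of VLDL assembly and secretion also had 0 calls in edgeR and DESeq2, 3 at an unadjusted edgeR p under 0.05 and a median of 0.05. Cuffdiff calls 5 of the 75 rows in all (6.67%, against 5.51% of the genes it tested), and the 75 rows include Surf4, which it did not test. In each of 3 of these lists it calls 1 gene. Chosen after their values were seen, they are Slc27a5, a bile acid and fatty acid CoA ligase, with 126 FPKM in CDAA_PTS livers and 81.6 FPKM in CDAA livers, the phosphatase Plpp2, with 18.8 FPKM in CDAA_PTS livers and 25.8 FPKM in CDAA livers, and the lipid droplet protein Pnpla3, with 12.5 FPKM in CDAA_PTS livers and 5.93 FPKM in CDAA livers (authors' deposited table). EdgeR calls none of these 3 (adjusted p = 0.19, 0.089 and 0.33, authors' deposited table).

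Among 22 rows for transcription factors and coactivators of these genes, 1 rose, 1 fell and 20 did not pass in edgeR, with a median of -0.04 in the authors' deposited table. Over all genes 1.47% were called higher and 1.95% lower. Nr5a2, the nuclear receptor also called LRH-1, rose by 0.42 on the edgeR log2 scale (adjusted p = 0.012), with 16.2 FPKM in CDAA_PTS livers and 12.1 FPKM in CDAA livers in the authors' deposited table. Cebpb, a C/EBP family factor of the acute phase and of gluconeogenesis, fell by 0.73 (edgeR adjusted p = 0.00047), with 12.0 FPKM in CDAA_PTS livers and 20.0 FPKM in CDAA livers in the authors' deposited table. DESeq2 and Cuffdiff call both. Srebf1, the gene of the lipogenic factor SREBP1, was not called, with 104 FPKM in CDAA_PTS livers and 112 FPKM in CDAA livers, nor was Hnf4a, with 115 FPKM in CDAA_PTS livers and 119 FPKM in CDAA livers (authors' deposited table).

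**Figure D5:**
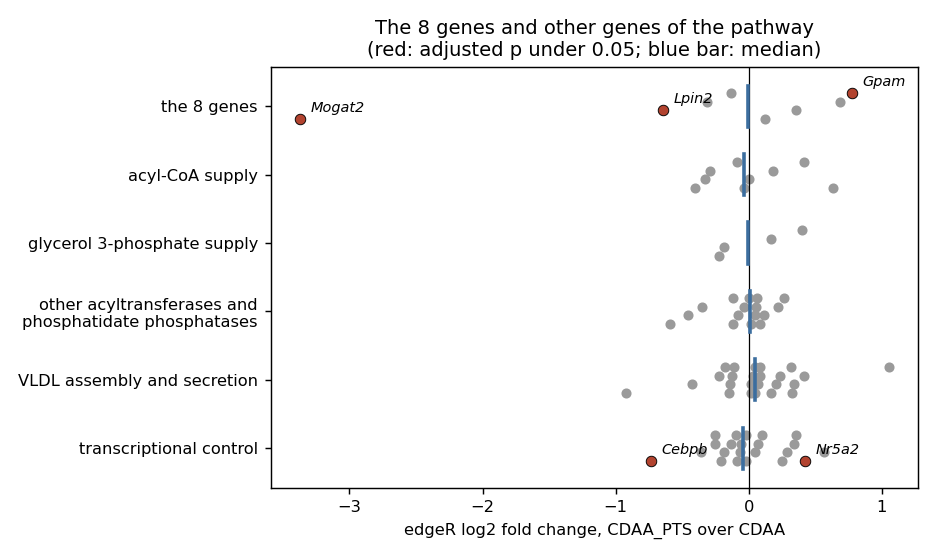
EdgeR log2 fold change, CDAA_PTS over CDAA, of the 8 genes and of 5 lists of other genes of the pathway, with genes at an adjusted p under 0.05 in red, others in grey and the median of each list as a blue bar. The medians lie between -0.04 and 0.05, and the called genes are Gpam, Lpin2, Mogat2, Nr5a2 and Cebpb.

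Hepatocyte genes marked the tissue as labelled. All 8 hepatocyte markers were measured, none was called by edgeR, DESeq2 or Cuffdiff, and 1 had an unadjusted edgeR p under 0.05 in the authors' deposited table. Cuffdiff did not test Alb. Albumin (Alb) had a mean normalized count of 1496570, although Cuffdiff lists it at 0 FPKM in both groups. Marker lists of pancreatic acinar cells (2 of 7 measured), cholangiocytes, stellate cells, macrophages, endothelial cells (4 of 5 measured) and T and NK cells held 0 edgeR or DESeq2 calls, 1 gene at an unadjusted edgeR p under 0.05 and 1 Cuffdiff call, the cholangiocyte marker Sox9 with 4.41 FPKM in CDAA_PTS livers and 3.04 FPKM in CDAA livers (authors' deposited table). DESeq2 gives no adjusted p for Acta2, Cel, Cd3g and Gzmb, and Cuffdiff did not test Cel and Gzmb. Over all genes edgeR called 3.41%, 14.6% had an unadjusted edgeR p under 0.05, and Cuffdiff called 5.51% of those it tested. All 6 cholangiocyte markers had an edgeR log2 fold change above 0, between 0.11 and 0.53 with a median of 0.23, and their summed FPKM was 87.8 in CDAA_PTS and 74.9 in CDAA (authors' deposited table). Of all genes, 51.0% lay above 0, and none of these 6 markers had an unadjusted edgeR p under 0.05. The part of the cholangiocyte markers in the values of the 8 genes was not tested. The 4 B cell markers were looked up by symbol, 0 matched, and they were not analysed here.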

How the data were processed

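RNA of 4 CDAA_PTS and 4 CDAA livers was extracted with Trizol and made into TruSeq RNA libraries, per the labels' protocols; whether reads keep their strand is not stated in the sources used here. Per the submitters' processing notes, the tools were TopHat2, Cufflinks, edgeR, DESeq2 and FastQC, with no versions, on build rn6. The single file is the authors' comparison table, and 0 columns of values per library were set aside. The authors' deposited DESeq2 block holds a signal (the mean of counts divided by size factors), a moderated log2 fold change with its SE, a test score and p-values. The authors' deposited edgeR block holds a log2 fold change, log2 mean CPM and p-values, and the deposited Cuffdiff block holds 1 FPKM value per group, a log2 ratio, a score, a q-value and its p-value. The depth of single libraries is unknown, and the deposited mean normalized counts sum to 13907006. The authors' model designs and filters are not stated.

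The adjusted p under 0.05 of edgeR as run by the authors was the call rule; no count model was run here. The authors' edgeR and DESeq2 adjusted p-values were recomputed by the Benjamini-Hochberg method without a difference beyond rounding, a step tested on simulated data. The deposited Cuffdiff q-values, used as given, differed from such values over the genes tested by up to 0.0118. The 95% intervals are the DESeq2 value of the authors plus and minus its SE times the normal quantile. Being centred on the moderated value, they are not intervals for the edgeR or Cuffdiff fold changes. DESeq2 adjusted p-values that the authors left missing for 1956 genes stayed missing, and 1888 genes that Cuffdiff did not test were left out of its counts over all genes. P-values cover variation between rats only as the authors' models estimated it, and rats were housed in pairs. Alternatives were the other tools, a minimum mean of 1 CPM, a threshold of 0.01 and a pseudocount of 1 FPKM. Genes, lists and motifs were chosen with earlier results of these data known. Named were all 8 genes, list genes past the threshold, some of the most abundant others of each list, called markers and a few defining markers. Isoenzymes of each step were added after their values were seen. Python 3.11.15, pandas 2.3.3 and SciPy 1.17.1 were used.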

Additional observations from a re-analysis of the deposited data

How the results depend on the processing

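Gpam and Lpin2 kept their direction and their call in edgeR, DESeq2 and Cuffdiff and at a minimum mean of 1 CPM, where 3 of the 8 genes were called as before. At a threshold of 0.01, edgeR calls 1 of the 8 (Gpam), 1 transcription factor row (Cebpb) and 213 genes in all. Mogat2 lost its call in DESeq2, where its log2 fold change was -0.31, and its FPKM log2 ratio became -1.52 with a pseudocount of 1 FPKM, which by construction shrinks ratios of low values. Lpin1 gained a call in Cuffdiff, at 0.87, and the cause was not tested. Cuffdiff calls 1 gene in the list of fatty acid uptake and activation, 1 among the other acyltransferases and phosphatases and 1 in VLDL assembly and secretion, where edgeR calls 0. No direction of the 8 genes reversed between the 3 tools. No paired analysis was possible because the authors' table holds no value per library, and for the same reason leaving out each rat in turn was not run. Of the 8 genes Mogat2 had the lowest mean normalized count, 34.6.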

Other observations

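The DESeq2 value of Mogat2 was 0.0906 of its edgeR value, against a median ratio of 0.844 over the 516 genes called by edgeR in the authors' deposited table. Of these, 12, Mogat2 included, had a ratio under 0.25, with mean normalized counts between 2.66 and 34.6, where Mogat2 had the highest. Next above Mogat2 were AABR07028989.1 (0.0912) and Sfrp4 (0.101). Below it, also chosen after their values were seen, were LOC100910418 and Npy4r, with mean normalized counts of 3.22 and 3.87. Npy4r had 0.0149 FPKM in CDAA_PTS livers and 0.424 FPKM in CDAA livers, and LOC100910418 had 0.570 FPKM in CDAA_PTS while it is listed at 0 in CDAA (authors' deposited table). DESeq2 gives neither of these 2 an adjusted p.

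For Lpin1 the edgeR and Cuffdiff log2 fold changes, 0.69 and 0.87, lay further apart than for any other of the 8 genes; for Gpam both were 0.77 and for Mogat2 both were -3.37 (authors' deposited table). Which transcripts of Lpin1 the reads came from was not analysed here.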
